A study of Rattus norvegicus with 19 samples.

Results

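Macrophage and myeloid cell genes were followed through collateral sprouting in the rat dorsal root ganglion. The 35 genes code for proteins that macrophages and related phagocytes carry or depend on, from the growth factor Csf1 and its receptor Csf1r to Fc receptors, oxidase subunits and scavenger receptors. Every probe set whose platform gene symbol was one of these genes was taken, and the brightest probe set (highest mean over all arrays) stood for each gene. This gave 33 measured genes with 43 probe sets, of 14217 genes and 31042 probe sets tested in all. Spi1, which codes for the transcription factor PU.1, and Msr1, a scavenger receptor, had no such probe set and are not analysed here. A further 10 probe sets of 8 of the genes are given as values beside the brightest ones.

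The ganglia came from adult female Sprague-Dawley rats. In the day 14 group (7 rats) and the day 7 group (7 rats), surgeons had cut the T9, T10, T12 and T13 dorsal and lateral cutaneous nerves of 1 side, 14 or 7 days earlier, which leaves the T11 nerve intact and lets its axons sprout into the denervated skin. The naive group (5 rats) was not operated. No sham-operated group and no group with a cut T11 nerve is included here. Each array held RNA of a single T11 ganglion of 1 rat after 2 rounds of linear amplification. The values are log2 levels from a GeneChip, normalised by RMA, a method that brings all arrays to 1 common distribution.

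A dorsal root ganglion holds resident macrophages among the satellite glia that wrap its sensory neurons. After a peripheral nerve is cut, macrophages in the ganglia of the injured nerve multiply or are recruited, and Csf1 made by injured neurons is one of the signals known to act on them through Csf1r. Macrophages take up antibody-coated material through Fc receptors, of which the activating ones signal through the adaptor coded by Fcer1g, and kill or digest with the NADPH oxidase and lysosomal enzymes. Many of these genes are also used by other leukocytes, and Csf1 and Lgals3 by sensory neurons too, so no single gene counts macrophages. In whole ganglia, fewer cells of a type and less RNA per cell cannot be told apart.

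PU.1 drives many myeloid genes through a purine-rich site, and its own transcript is not among the measured genes. The promoter windows of RefSeq (build GRCr8, 250 bases before to 50 after the start) were therefore searched for the letters GAGGAAGT on either strand, the core of a PU.1 site. Of the 33 measured genes, 21 had a window, and 3 of these (14.3%) held the letters, against 810 of all 33469 windows (2.42%). In all 3 the match ran in reverse orientation, as ACTTCCTC, and lay before the start. The 150 bases just before the start of each gene are shown 5′ to 3′ on the gene's strand because they place the match; capitals mark it.
Ctss, chr2:185775246-185775395, plus strand: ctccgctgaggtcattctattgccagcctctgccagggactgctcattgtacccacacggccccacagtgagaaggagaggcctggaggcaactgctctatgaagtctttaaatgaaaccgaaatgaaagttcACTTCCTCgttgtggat
Cd53, chr2:197087897-197088046, minus strand: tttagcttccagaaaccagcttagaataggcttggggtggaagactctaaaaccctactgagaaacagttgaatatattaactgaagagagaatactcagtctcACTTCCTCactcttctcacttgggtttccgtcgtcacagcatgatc
Fcgr3a, chr13:85782486-85782635, plus strand: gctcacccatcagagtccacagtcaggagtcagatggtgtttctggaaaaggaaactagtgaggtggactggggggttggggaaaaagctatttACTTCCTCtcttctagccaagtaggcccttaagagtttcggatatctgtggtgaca
These matches are descriptions of letters, and binding was not measured. Between the match and the start lay 9 bases in Ctss, 38 in Cd53 and 48 in Fcgr3a.

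The 19 arrays were alike over all probe sets, with pairwise correlations between 0.9869 and 0.9966, and no 2 arrays were identical. Some features of single arrays bear on what follows. One array of each group (day 14 replicate 2, day 7 replicate 7 and naive replicate 1) stood apart in its mean over 16 skeletal muscle genes, at 7.75, 8.90 and 9.21, against 6.11 to 6.99 on the other 16 arrays. The neutrophil and red blood cell lists varied widely among naive rats. The first letters of the rats' codes in the labels ran unevenly through the groups. The code AI occurred for 5 rats of day 14, AJ for 2 of day 14, 5 of day 7 and 2 naive rats, and AK for 2 of day 7 and 3 naive rats. The labels do not say what the code stands for.

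No myeloid gene passed the threshold of an adjusted p of 0.05 in any comparison, in a limma fit over all probe sets with Benjamini-Hochberg adjustment. Between day 14 and naive ganglia 0 of 33 passed, where 0.139% of all probe sets did. Between day 7 and naive ganglia 0 of 33 passed, and between day 14 and day 7 again 0 of 33, where the share of all probe sets was 0% in each. The F test over the 3 groups called 0 of the 33 as well, against 0.0258% of all probe sets. Both comparisons with naive rats share the same 5 naive arrays, and both comparisons of day 14 share the same 7 day 14 arrays.

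Below that threshold, the myeloid genes leaned upward at day 14 and not at day 7. Of the 33 genes, 30 had a higher mean at day 14 than in naive ganglia and 31 a higher mean at day 14 than at day 7, while 14 had a higher mean at day 7 than in naive ganglia. The median of their log2 differences was 0.16 for day 14 minus naive, 0.17 for day 14 minus day 7 and -0.02 for day 7 minus naive. Over all probe sets the same medians were 0.021, 0.011 and 0.007, with 56.4%, 55.0% and 53.0% of the differences above 0.
At an unadjusted p under 0.05, 8 genes (24.2%) were higher at day 14 than in naive ganglia, where 10.9% of all probe sets were, and 0 were lower, where 8.79% were. Between day 14 and day 7, 10 genes (30.3%) were higher, where 7.11% of all probe sets were, and 0 were lower, where 4.22% were. This count was 5 to 15 with 1 array left out, where 5.15% to 8.37% of all probe sets were higher. It was 5 without day 14 replicate 5, day 7 replicate 5 or day 7 replicate 6, 6 without day 14 replicate 3 and 15 without day 7 replicate 2. With the rat code prefix as a block it was 4, where 2.55% of all probe sets were higher. Between day 7 and naive ganglia 1 gene (3.0%), Lcp1, was higher, where 3.69% of all probe sets were, and 0 were lower, where 5% were.
The genes below that unadjusted p against both naive and day 7 ganglia were 5, namely Laptm5, Cd4, Fcgr3a, Tlr2 and P2ry12. All but Laptm5 were dim, with means over all arrays of 5.36 (Cd4), 6.44 (Fcgr3a), 5.41 (Tlr2) and 5.16 (P2ry12). The median probe set had a mean of 6.72. The other P2ry12 probe set, at 5.14, gave -0.10 against naive. In a fit of probe sets above the median level, 4 of 22 genes (18.2%) were higher at day 14 than naive, where 5.81% of probe sets were.

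The groups overlapped throughout. In no gene did every day 14 array lie above every naive array, a pattern that 1.07% of all probe sets showed. The same count was 0 for day 7 above naive, where 0.19% of all probe sets showed it, and 0 for day 14 above day 7, where 0.106% did. In 6 genes (18.2%) at least 6 of the 7 day 14 arrays lay above every naive array, namely Lcp1, Trem2, Cd14, Tlr2, Lgals3 and P2ry12, and 3.95% of all probe sets did so. Differences of 2-fold or more lay outside the 95% interval in 31 of the 33 genes for day 14 against naive, in 32 for day 7 against naive and in 30 for day 14 against day 7.

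**Figure D1:**
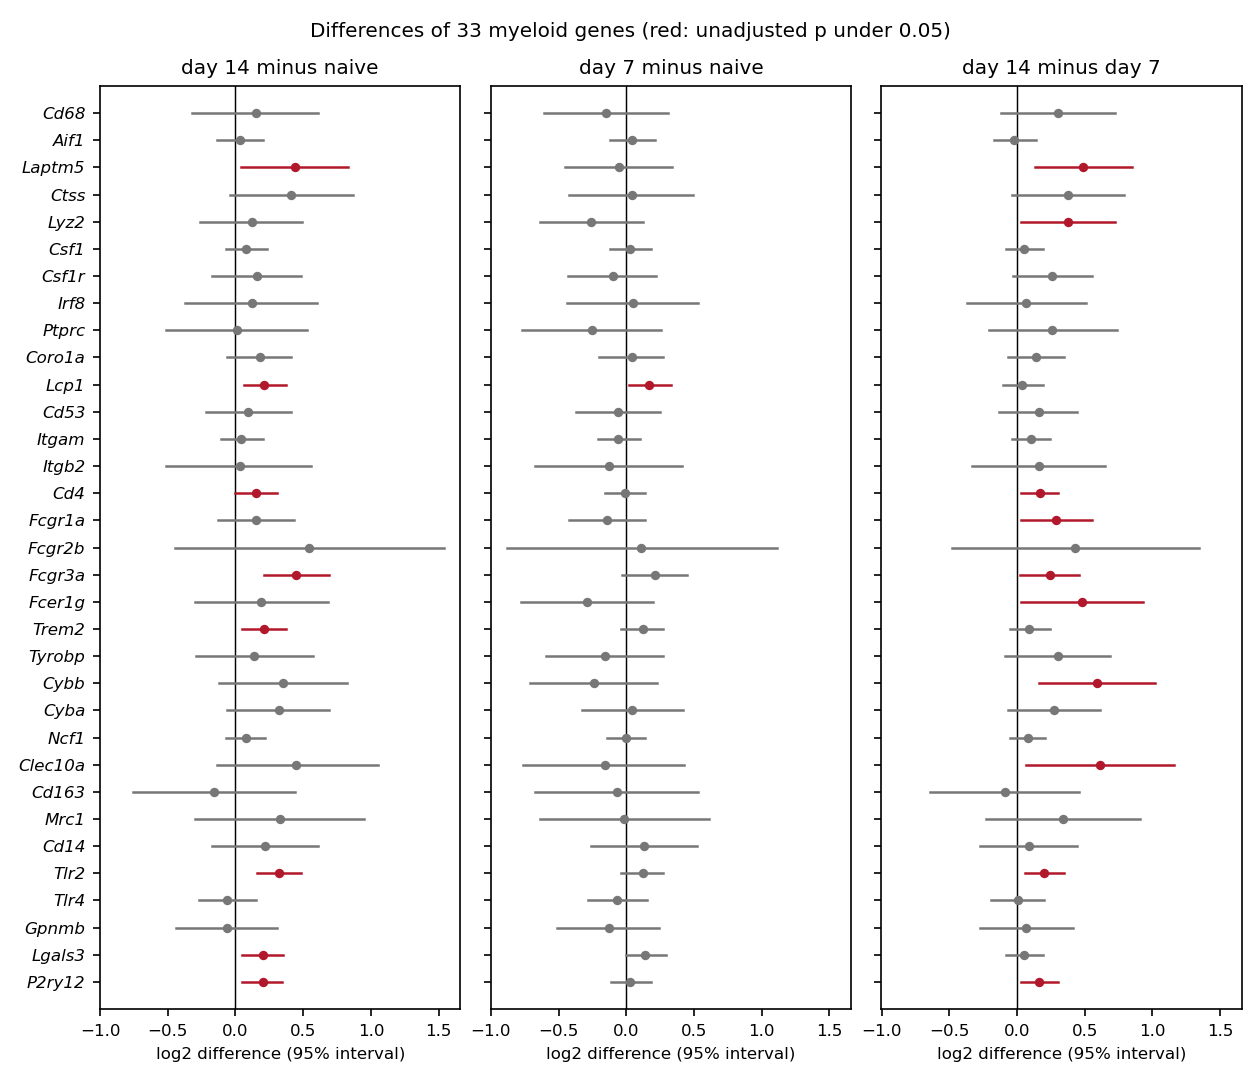
Log2 differences of the 33 myeloid genes (rows, grouped by role) for day 14 minus naive, day 7 minus naive and day 14 minus day 7, with points for the estimates and lines for the 95% intervals of the limma fit. Points of both day 14 panels lie mostly right of 0, with medians of 0.16 and 0.17, and those of day 7 minus naive lie around 0; red marks an unadjusted p under 0.05, and no gene passed the adjusted threshold.

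Among the lysosomal and general macrophage proteins, the largest differences were those of Laptm5, a lysosomal membrane protein of blood-derived cells. Laptm5 had a lowest, median and highest level of 9.59, 10.15 and 10.74 at day 14 and of 9.21, 9.63 and 10.26 at day 7, against 9.31, 9.58, 10.04, 9.76 and 9.60 in the 5 naive ganglia. Of the 7 day 14 arrays, 4 lay above every naive array, and 3 above every day 7 array. The difference was 0.44 ± 0.19 (SE) for day 14 minus naive (adjusted p = 0.213) and 0.49 ± 0.17 for day 14 minus day 7 (adjusted p = 0.353). Its second probe set gave 0.42 and 0.51, so both probe sets of Laptm5 placed day 14 above the other groups by about the same amount.

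Ctss codes for cathepsin S, a lysosomal protease that cuts the invariant chain of MHC class II. It ranged from 9.07 to 10.20 at day 14 (median 9.41) and from 8.48 to 9.94 at day 7 (median 9.11), against 9.02, 9.34, 9.29, 8.98 and 8.92 in naive ganglia. All but 2 of the 7 day 14 arrays were above all naive arrays, and the mean difference was 0.41 ± 0.22 (adjusted p = 0.299). At day 7 the same gene spread widely on both sides of the naive arrays, 2 of 7 above and 3 of 7 below them all. Lyz2, the lysozyme of macrophages and neutrophils, averaged 12.61 ± 0.22 at day 14 and 12.23 ± 0.41 at day 7, against 12.49 ± 0.38 in naive ganglia (SD). Its day 14 level was 0.38 ± 0.17 (SE) above that of day 7 (adjusted p = 0.411) and 0.12 ± 0.18 above naive.

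Cd68 and Aif1, the genes behind the CD68 and Iba1 stains by which tissue macrophages are usually counted, did not pass in any comparison. Cd68 averaged 8.29 ± 0.40 at day 14 and 8.0 ± 0.54 at day 7, against 8.15 ± 0.17 in naive ganglia (SD). Its differences of 0.15 ± 0.22 (SE) for day 14 minus naive and -0.15 ± 0.22 for day 7 minus naive were smaller than their errors, and day 14 minus day 7 was 0.30 ± 0.20 (adjusted p = 0.593). The SD among operated rats was more than that among naive ones. The brightest Aif1 probe set averaged 7.12 ± 0.14 at day 14 and 7.13 ± 0.13 at day 7, against 7.09 ± 0.16 in naive ganglia (SD), with an interval of -0.14 to 0.20 for day 14 minus naive. The other Aif1 probe set gave 0.23 for day 14 minus naive and 0.37 for day 14 minus day 7 (adjusted p = 0.489), so the 2 probe sets of Aif1 disagree on its size.

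No gene of the growth factor axis passed, and the means of Csf1 lay close together. Csf1, the ligand, averaged 7.74 ± 0.08 at day 14 and 7.68 ± 0.15 at day 7, against 7.66 ± 0.12 in naive ganglia (SD). The 95% intervals for its difference from naive were -0.07 to 0.23 at day 14 and -0.12 to 0.18 at day 7, and its 3 other probe sets differed from naive by 0.04 to 0.08 at day 14 and by -0.01 to 0.06 at day 7. Csf1r, the receptor, averaged 9.01 ± 0.25 at day 14 and 8.75 ± 0.37 at day 7, against 8.85 ± 0.21 in naive ganglia, which places day 14 above day 7 by 0.26 ± 0.14 (SE, adjusted p = 0.499). Irf8, a transcription factor of the monocyte lineage, was 0.12 ± 0.23 above naive at day 14. The highest Irf8 level of all 19 arrays, 7.08, came from day 7 replicate 2, and the other 6 day 7 arrays lay between 5.27 and 6.0.

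Of the leukocyte surface and cytoskeletal genes, Lcp1 alone had an unadjusted p under 0.05 at both days. Lcp1 codes for L-plastin, which bundles actin in leukocytes. Its levels ran from 10.83 to 11.28 at day 14 (median 11.04) and from 10.84 to 11.21 at day 7 (median 10.99), against 10.78, 10.82, 10.86, 10.77 and 10.91 in naive ganglia. Thus 6 of the 7 day 14 arrays and 4 of the 7 day 7 arrays were above every naive array, by small amounts. The differences were 0.21 ± 0.08 at day 14 (adjusted p = 0.151) and 0.17 ± 0.08 at day 7 (adjusted p = 0.540). Coro1a, an actin-binding protein of leukocytes, was 0.18 ± 0.11 above naive at day 14. With the rat code prefix as a block, where the day 14 differences rest on 2 day 14 rats, that of Coro1a was -0.06.

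Cd4 marks helper T cells and, in rats, monocytes and macrophages as well. It stood between 5.39 and 5.54 at day 14 (median 5.48) and between 5.02 and 5.44 at day 7 (median 5.38), against 5.41, 5.31, 5.30, 5.17 and 5.34 in naive ganglia. The day 14 rats were close together and mostly above the rest, with 4 of 7 above every naive array and 4 of 7 above every day 7 array. The differences were 0.15 ± 0.07 against naive (adjusted p = 0.248) and 0.17 ± 0.07 against day 7 (adjusted p = 0.380).

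The integrin pair and the pan-leukocyte gene Ptprc showed almost no mean difference at day 14. Itgam and Itgb2, which code for the CD11b and CD18 chains of the complement receptor of phagocytes, differed from naive by 0.04 ± 0.07 and 0.03 ± 0.26 at day 14. Ptprc, the gene of CD45, differed by 0.01 ± 0.25 at its brightest probe set, where the day 14 arrays ran from 5.33 to 6.68 and the naive arrays from 5.56 to 6.16. Its other probe set, at a low level throughout, gave 0.19 ± 0.07 (adjusted p = 0.151), with 5 of the 7 day 14 arrays above every naive array. The probe sets of Ptprc thus disagree. Cd53, a leukocyte tetraspanin and 1 of the genes with the PU.1 letters shown above, was 0.09 ± 0.15 above naive at day 14 and -0.06 ± 0.15 relative to naive at day 7.

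Like most of the 33 genes (30 above naive, 31 above day 7), the Fc receptor genes, Fcer1g, Trem2 and Tyrobp had higher means at day 14. This held for 6 of 6 genes against both other groups, with a median difference of 0.20 from naive and 0.30 from day 7. Over all probe sets 56.4% and 55.0% of these differences lay above 0. Fcgr3a, an activating receptor for IgG and also 1 of the genes with the PU.1 letters, came closest to the threshold among these 6. Its levels were 6.42, 6.58, 7.05, 6.41, 6.94, 6.72 and 6.44 at day 14 and 6.51, 6.69, 6.37, 6.44, 6.05, 6.33 and 6.46 at day 7, against 6.42, 6.20, 6.09, 6.16 and 6.13 in naive ganglia. All but 2 of the 7 day 14 arrays lay above the highest naive array, naive replicate 1, and the other 2 lay at or just below it. The difference was 0.45 ± 0.12 (SE), a 1.37-fold higher level, with a 95% interval of 0.21 to 0.69 and an adjusted p of 0.077. Without naive replicate 1 it was 0.50 with an adjusted p of 0.0484, which is past the threshold. Over all alternative settings it ran from 0.37 to 0.55, with an adjusted p of up to 0.63. Day 7 lay between, 0.21 ± 0.12 above naive (adjusted p = 0.635).

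Trem2, a lipid-sensing receptor of tissue macrophages, ran from 6.90 to 7.29 at day 14 (median 7.03) and from 6.79 to 7.19 at day 7 (median 6.97), against 6.79, 6.85, 6.91, 6.93 and 6.92 in naive ganglia. All but 1 of the 7 day 14 arrays exceeded all naive arrays, and the difference was 0.21 ± 0.08 (adjusted p = 0.154). Its second probe set gave 0.14 ± 0.08. Tyrobp, the adaptor through which Trem2 signals, was 0.14 ± 0.21 above naive at day 14, with no day 14 array above the highest naive array. Fcer1g, the shared signalling chain of Fc receptors, ran from 9.80 to 10.87 at day 14 (median 10.32) and from 8.98 to 10.55 at day 7 (median 9.80), against 9.86, 9.95, 10.60, 10.03 and 10.04 in naive ganglia. Its day 14 mean was 0.48 ± 0.21 above day 7 (adjusted p = 0.416) but 0.19 ± 0.24 above naive, and day 7 stood at -0.29 ± 0.24 relative to naive.

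Fcgr1a, the high-affinity IgG receptor, averaged 7.38 ± 0.23 at day 14 and 7.09 ± 0.28 at day 7, against 7.23 ± 0.23 in naive ganglia (SD). Its day 14 level was 0.29 ± 0.12 (SE) above day 7 (adjusted p = 0.395). Fcgr2b, the inhibitory IgG receptor, had the largest mean difference of all 33 genes between day 14 and naive ganglia, 0.54 ± 0.48, and also the largest SD at day 14 and at day 7 (0.74 and 1.27), though not in naive ganglia, where Cd163 had it (0.52). Its levels were 6.83, 6.26, 7.73, 6.34, 6.83, 5.99 and 5.40 at day 14 and 5.48, 8.70, 5.25, 6.21, 6.22, 4.83 and 5.67 at day 7, against 5.64, 5.87, 6.47, 5.86 and 5.87 in naive ganglia. Operated rats thus lay both far above and far below the naive ones, and the interval of -0.45 to 1.54 covers 0 (adjusted p = 0.536).

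**Figure D2:**
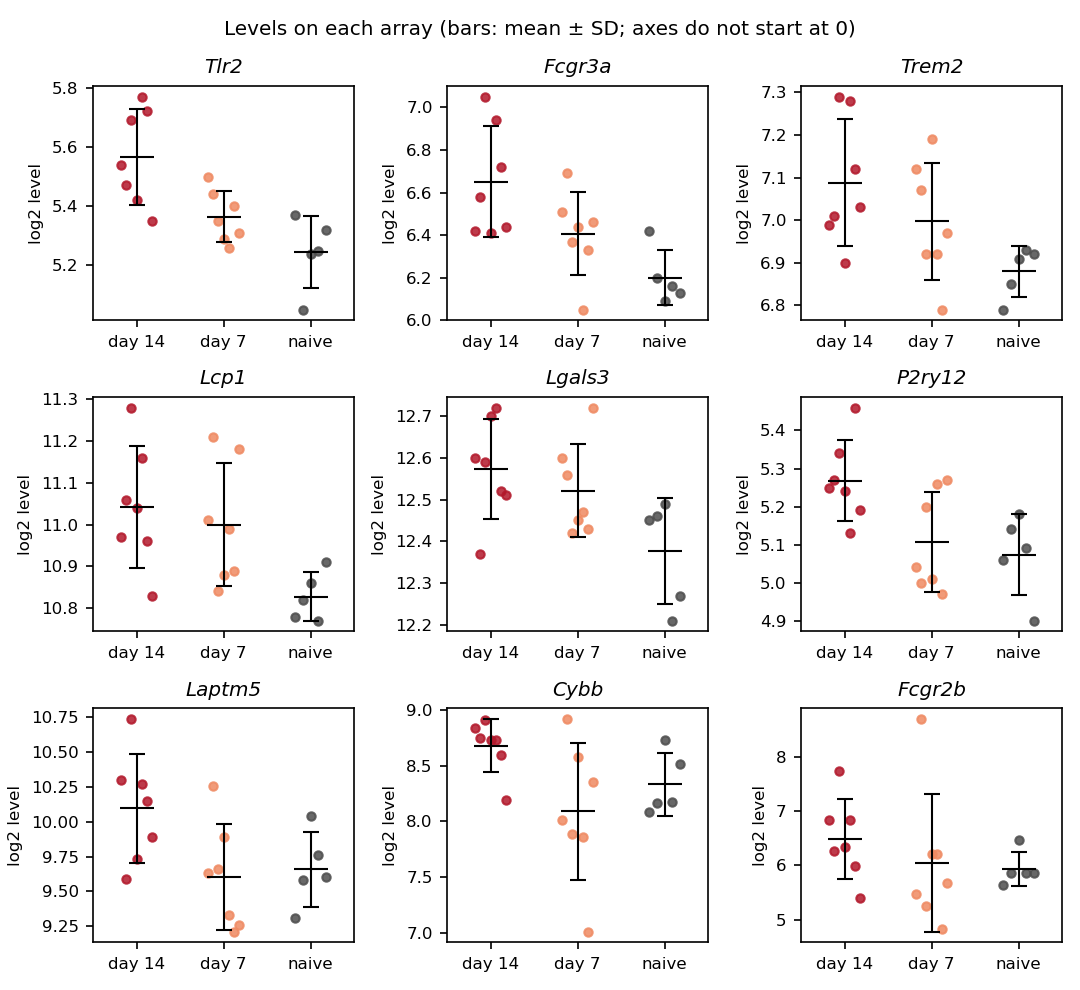
Log2 levels of 9 myeloid genes on every array, 1 panel per gene, with day 14, day 7 and naive arrays from left to right and bars for the mean ± SD (7, 7 and 5 rats). The day 14 arrays of Tlr2, Fcgr3a, Trem2, Lcp1, Lgals3 and P2ry12 lie mostly above the naive ones but overlap them, while Fcgr2b ranges from 4.83 to 8.70 at day 7.

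The NADPH oxidase makes superoxide, with Cybb and Cyba as its membrane subunits and Ncf1 as the organiser in the cytosol. Cybb levels were 8.84, 8.75, 8.91, 8.73, 8.73, 8.59 and 8.19 at day 14 and 8.01, 8.92, 7.89, 8.58, 7.86, 7.01 and 8.35 at day 7, against 8.08, 8.16, 8.73, 8.17 and 8.51 in naive ganglia. Day 14 was tight and high except for replicate 7, and day 7 was wide, with both the highest and the lowest Cybb level of all 19 arrays. Day 14 was 0.59 ± 0.21 above day 7 (a 1.5-fold higher level, adjusted p = 0.352) and 0.35 ± 0.22 above naive (adjusted p = 0.390). The dimmer Cybb probe set gave 0.10 and 0.18 for the same comparisons.

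Cyba averaged 9.42 ± 0.27 at day 14 and 9.15 ± 0.41 at day 7, against 9.10 ± 0.31 in naive ganglia (SD), a difference of 0.32 ± 0.18 (SE) at day 14 (adjusted p = 0.331). The other probe set of Cyba had 6 of the 7 day 14 arrays and 4 of the 7 day 7 arrays above every naive array, with differences of 0.21 ± 0.07 (adjusted p = 0.135) and 0.20 ± 0.07 (adjusted p = 0.455). At that probe set day 7 and day 14 did not separate, since their difference was 0.02 with an interval of -0.12 to 0.15. Ncf1 was 0.08 ± 0.07 above naive at day 14 and averaged 5.08 in both other groups.

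Among lectins and scavenger receptors, Clec10a had the largest difference between the days. This C-type lectin of macrophages and dendritic cells had levels of 9.20, 8.17, 9.27, 8.86, 9.10, 8.75 and 8.18 in day 14 ganglia and of 8.17, 9.20, 7.82, 8.99, 8.12, 7.12 and 7.81 at day 7, against 7.93, 8.69, 8.52, 8.12 and 8.43 in naive ganglia. Day 14 was 0.61 ± 0.26 above day 7 (1.53-fold, adjusted p = 0.396) and 0.45 ± 0.29 above naive (adjusted p = 0.381), with 5 of the 7 day 14 arrays above every naive one. Mrc1, the mannose receptor, was 0.33 ± 0.30 above naive at day 14. At day 7 Mrc1 ran from 7.57 to 10.09, so the day 7 rats spanned more than the whole range of the other groups. Cd163, which clears haemoglobin bound to haptoglobin, was lower at day 14 than in naive ganglia by its mean, at -0.16 ± 0.29, and its highest level, 7.71, came from day 7 replicate 4.

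Of the receptors for microbial patterns, Tlr2 had the smallest p of all 33 genes between day 14 and naive ganglia and between the days. It was a dim gene, with a mean over all arrays of 5.41, where the median probe set had 6.72. Tlr2 levels were 5.54, 5.47, 5.69, 5.42, 5.77, 5.72 and 5.35 at day 14 and 5.50, 5.44, 5.35, 5.29, 5.26, 5.40 and 5.31 at day 7, against 5.37, 5.05, 5.24, 5.25 and 5.32 in naive ganglia. All but 1 of the day 14 arrays lay above every naive array, and 4 of them above every day 7 array. The difference from naive was 0.32 ± 0.08, a 1.25-fold higher level, with a 95% interval of 0.16 to 0.48 and an adjusted p of 0.073. Against day 7 it was 0.20 ± 0.07 (adjusted p = 0.346), and day 7 was 0.12 ± 0.08 above naive (adjusted p = 0.690). Without naive replicate 1, the highest naive array of Tlr2, the day 14 difference from naive was 0.35 with an adjusted p of 0.0439. Over all alternative settings that difference ran from 0.27 to 0.37, with an adjusted p of up to 0.745.

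Cd14, the co-receptor that hands lipopolysaccharide to Tlr4, ran from 7.5 to 8.2 at day 14 (median 7.82) and from 7.19 to 8.50 at day 7 (median 7.70), against 7.47, 7.77, 7.77, 7.53 and 7.70 in naive ganglia. All but 1 of the 7 day 14 arrays lay above all naive arrays, yet the difference was 0.22 ± 0.19 (adjusted p = 0.525). The limma fit takes 1 spread over all 3 groups, and the day 7 SD of Cd14 was 0.52. With only the day 14 and naive arrays in the fit, the adjusted p was 0.261, still above the threshold. Tlr4 itself differed by -0.06 ± 0.10 from naive at day 14 and by -0.07 ± 0.10 at day 7, with intervals of -0.27 to 0.15 and -0.28 to 0.15.

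Gpnmb and Lgals3 are both genes of activated phagocytes, and their means lay on opposite sides of naive. Gpnmb, a membrane glycoprotein, was at -0.06 ± 0.18 at day 14 and -0.13 ± 0.18 at day 7 relative to naive. Lgals3, the gene of galectin-3, stood between 12.37 and 12.72 at day 14 (median 12.59) and between 12.42 and 12.72 at day 7 (median 12.47), against 12.45, 12.46, 12.49, 12.21 and 12.27 in naive ganglia. All but 1 of the 7 day 14 arrays and 3 of the 7 day 7 arrays were above every naive array. Its differences were 0.20 ± 0.07 at day 14 (adjusted p = 0.151) and 0.14 ± 0.07 at day 7 (adjusted p = 0.587).

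P2ry12, the ADP receptor of microglia and platelets, ran from 5.13 to 5.46 at day 14 (median 5.25) and from 4.97 to 5.27 at day 7 (median 5.04), against 5.06, 5.14, 5.18, 5.09 and 4.90 in naive ganglia. The difference at day 14 was 0.20 ± 0.07 against naive (adjusted p = 0.154) and 0.16 ± 0.06 against day 7 (adjusted p = 0.374). Its other probe set ran the other way against naive, at -0.10 ± 0.11, and the mean of both gave 0.05. A direction for P2ry12 therefore depends on which probe set is read.

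The myeloid genes varied more from rat to rat than the typical probe set. Their median SD was 0.24 at day 14, 0.38 at day 7 and 0.21 in naive ganglia, where that of all probe sets was 0.13 in each group. The median SE of their differences was 0.18 for both comparisons with naive rats and 0.16 between the days, against 0.080 and 0.073 over all probe sets. The test could therefore see only larger differences in these genes than in the typical probe set.

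The spread was shared by many genes of the same rat. Relative to the naive mean, the median deviation over the 33 genes was 0.24, 0.06, 0.41, 0.13, 0.39, 0.15 and -0.07 in the 7 day 14 rats. It was -0.01, 0.41, -0.17, 0.13, -0.15, -0.45 and -0.18 in the 7 day 7 rats, and -0.17, -0.08, 0.23, -0.08 and 0.03 in the naive rats, each set against the other naive rats. All but 1 of the 7 day 14 rats were thus above 0 and 5 of the 7 day 7 rats below it.
Day 14 replicate 3 held the highest level of all 19 arrays in 11 genes, among them Laptm5, Ctss, Fcgr3a and Trem2, and day 14 replicate 5 in 5 genes. Day 7 replicate 2 held it in 8 genes, Cd68, Irf8, Itgb2, Fcgr2b, Tyrobp, Cybb, Tlr4 and Gpnmb. Day 7 replicate 4 held it in 3, Cd163, Mrc1 and Cd14. Day 7 replicate 6 had the lowest level of all 19 arrays in 18 genes, so the day 7 group held both extremes.
Of the 33 genes, 22 lay above every naive array in day 14 replicate 3, 17 in day 14 replicate 5 and 21 in day 7 replicate 2, and 22 lay below every naive array in day 7 replicate 6. Among naive rats, replicate 3 was the highest in 17 genes. These counts per array were not made over all probe sets. They therefore do not show whether the same arrays also stood apart in other genes.

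**Figure D3:**
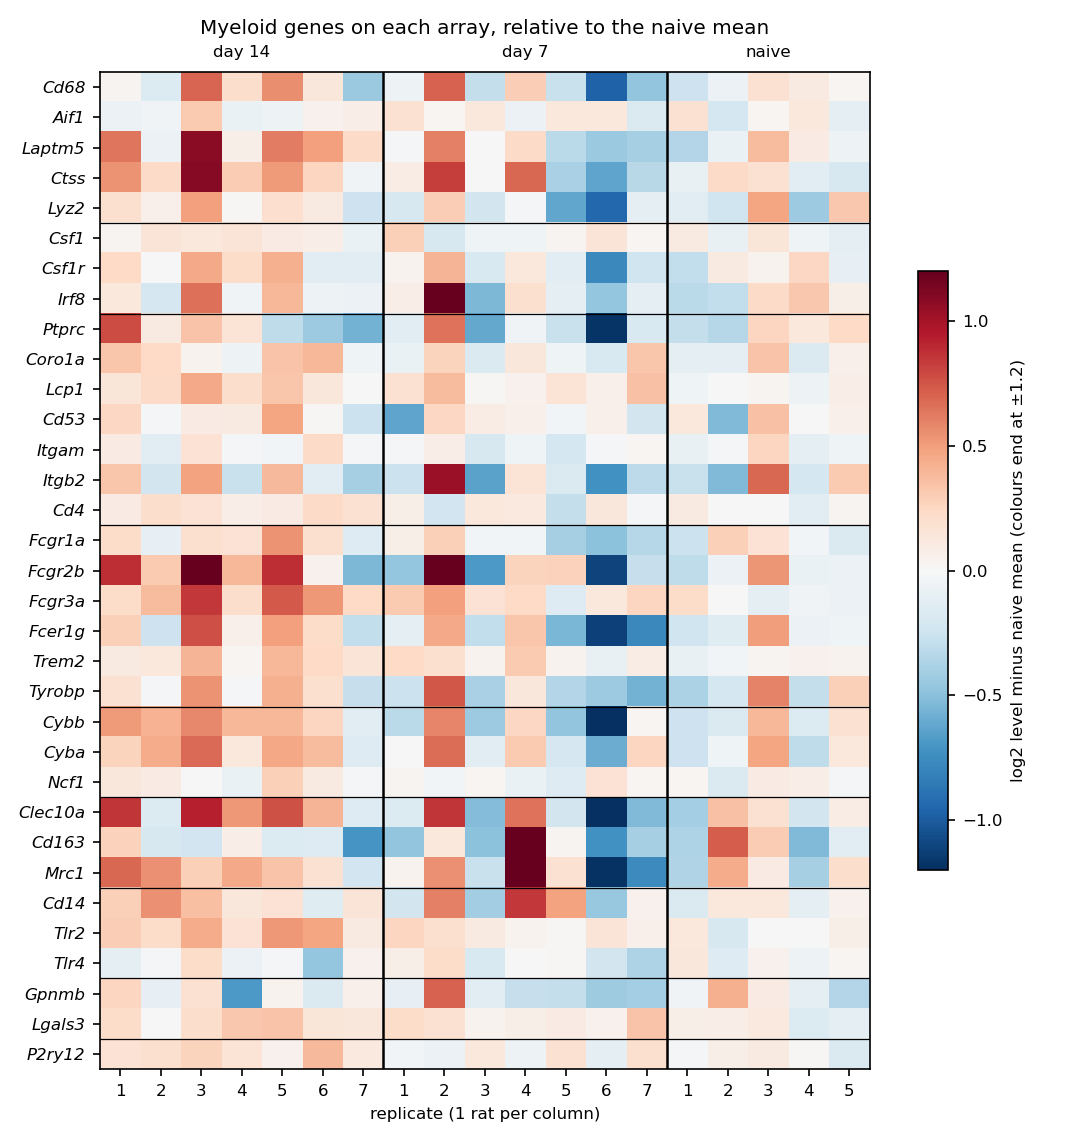
Log2 level of each of the 33 myeloid genes (rows, ordered by role) minus its naive mean on each of the 19 arrays (columns, 1 rat each), with red for higher and blue for lower and colours ending at ±1.2. Most genes are red in day 14 replicates 3 and 5 and day 7 replicate 2 and blue in day 7 replicate 6, so columns differ within a group as well as between groups.

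The 3 rats with the highest medians also had the highest levels of Atf3, a transcription factor that sensory neurons switch on after injury to their axons. Atf3 stood at 11.63 and 11.04 in day 14 replicates 3 and 5 and at 11.15 in day 7 replicate 2, against 7.28 to 10.17 in the other 11 operated rats and 7.94 to 8.44 in the naive rats. The order did not hold throughout: day 7 replicate 6, the lowest of all in its myeloid genes, had an Atf3 level of 9.18, above every naive rat, and day 7 replicate 4, with a myeloid median of 0.13, had the lowest Atf3 of all. The part of Atf3 in the myeloid levels was not tested.

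Within rats of the code AJ, the only code found in all groups, day 14 (2 rats) exceeded naive (2 rats) in 25 of the 33 genes with a median of 0.25. In the same code day 14 exceeded day 7 (5 rats) in 29 genes with a median of 0.26, and day 7 exceeded naive in 10 genes with a median of -0.08. Among AK rats, day 7 (2 rats) exceeded naive (3 rats) in 21 genes with a median of 0.09. With the code as a block in the fit, the median over the genes was 0.237 for day 14 minus naive and 0.254 for day 14 minus day 7, and 3 (9.1%) and 4 (12.1%) of the genes were higher at an unadjusted p under 0.05, where 3.14% and 2.55% of all probe sets were in that fit. The AJ rats of day 14 were replicates 3 and 4, with median deviations of 0.41 and 0.13, and replicate 3 had the highest median of the day 14 rats. The code AI occurred only at day 14, so the day 14 differences of the block fit rest on the same 2 rats and are no second check. The direction for day 14 was thus the same within the code AJ, with 2 day 14 rats behind it, and that for day 7 differed between codes.

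Other genes of macrophage biology gave 0 calls past the adjusted threshold in any list and comparison, so the counts that follow are at an unadjusted p under 0.05. For this and later lists, the shares of all probe sets were 10.9% higher and 8.79% lower at that p for day 14 against naive. They were 7.11% and 4.22% for day 14 against day 7, and 3.69% and 5% for day 7 against naive. In the same order, 56.4%, 55.0% and 53.0% of all differences lay above 0. Partners of the receptors and of the oxidase, such as Syk and Vav1, leaned like the myeloid genes between the days. Of 18 measured, 17 were higher at day 14 than at day 7 with a median difference of 0.12, and 5 reached that unadjusted p, all upward. The 3 with the smallest p were Vav1 at 0.23 ± 0.07, Blnk at 0.25 ± 0.10 and Syk at 0.32 ± 0.14 (adjusted p = 0.313, 0.369 and 0.400). Against naive, 15 of the 18 were higher at day 14 with a median of 0.08, and 1 reached it, Itgb1 at 0.13 ± 0.05 (adjusted p = 0.195). At day 7, 13 of the 18 were lower than in naive ganglia with a median of -0.04, and 2 reached it downward, Syk at -0.45 ± 0.15 and Vav1 at -0.18 ± 0.08 (adjusted p = 0.454 and 0.539).
Lysosomal genes of phagocytes were higher at day 14 than at day 7 in 16 of 17 with a median of 0.09, and 3 reached the unadjusted p, Ctsh at 0.18 ± 0.06, Hexa at 0.14 ± 0.06 and Ctsc at 0.21 ± 0.09. Against naive, 13 of the 17 were higher at day 14 with a median of 0.06 and 4 reached it, led by the protease gene Lgmn at 0.20 ± 0.06 (adjusted p = 0.119). Of all probe sets, 10.9% reached it upward against naive and 7.11% between the days.

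Genes of tissue-resident macrophages and microglia were mixed. Of 13 measured, 9 were higher at day 14 than in naive ganglia with a median of 0.13, and 1 reached the unadjusted p, Gpr34 at 0.16 ± 0.06 (adjusted p = 0.164). Over all probe sets 56.4% were higher, and 10.9% reached that p upward. Gpr34 was very dim, with a mean over all arrays of 3.91, where the median probe set had 6.72. C1qa, which codes for a chain of the complement protein C1q that macrophages make, was 0.43 ± 0.28 above naive. Adgre1, a surface receptor gene widely used to mark macrophages, was 0.50 ± 0.15 higher at day 14 than at day 7 (adjusted p = 0.312), with levels from 6.12 to 6.65 at day 14 and from 4.95 to 6.24 at day 7, against 6.04 to 6.5 in naive ganglia. At day 7 Adgre1 stood at -0.37 ± 0.17 relative to naive (adjusted p = 0.551), so its 3 groups ran in the same order as those of Cybb and Clec10a.

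Attractants of monocytes and their receptors were higher at day 14 than at day 7 in 11 of 11 measured genes with a median of 0.13, and 2 of them reached the unadjusted p, Ccl7 at 0.38 ± 0.14 and Ccl5 at 0.22 ± 0.10. Against naive, 8 of 11 were higher at day 14 with a median of 0.09, and 3 reached it. Over all probe sets 10.9% reached it upward against naive, and 7.11% between the days. Ccl2, the main attractant of monocytes, ran from 9.05 to 10.25 at day 14 (median 9.83) and from 8.92 to 9.95 at day 7 (median 9.38), against 8.70 to 9.27 in naive ganglia (median 9.03). Its differences of 0.80 ± 0.19 at day 14 (adjusted p = 0.076) and 0.48 ± 0.19 at day 7 (adjusted p = 0.519) exceed those of every one of the 33 myeloid genes against naive. Which cells of the ganglion made Ccl2 was not measured. The mean over the 11 genes ran from 6.99 to 7.18 at day 14 and from 6.83 to 7.01 at day 7, against 6.81 to 6.97 in naive ganglia.
In the list of lipid-handling phagocytes, 10 of 16 were higher at day 14 than in naive ganglia with a median of 0.11. All 4 that reached the unadjusted p were upward, where 10.9% of all probe sets were. Spp1, the gene of osteopontin, was 0.77 ± 0.18 above naive at day 14 (adjusted p = 0.073) and 0.58 ± 0.18 at day 7 (adjusted p = 0.426). Spp1 is also made by neurons, so its level does not speak for macrophages alone.

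The Toll-like receptor pathway and the growth and transcription factors of macrophages were divided in direction. Of 14 measured pathway genes, 6 were higher and 8 lower at day 14 than in naive ganglia, with a median of -0.01, and 1 reached the unadjusted p, the adaptor gene Myd88 at 0.24 ± 0.10 (adjusted p = 0.206). Of 14 factor genes, 8 were higher and 6 lower with a median of 0.06, and 2 reached it, Batf3 at 0.22 ± 0.07 and the receptor chain gene Csf2rb at 0.20 ± 0.08 (adjusted p = 0.118 and 0.198). In the same comparison 10.9% of all probe sets reached it upward and 8.79% downward. Batf3 and Csf2rb were dim, with means over all arrays of 4.88 and 5.08, where the median probe set had 6.72. Genes of cell division were mostly lower, 10 of 11 with a median of -0.13, and 2 reached the unadjusted p downward. These were Bub1 at -0.32 ± 0.10 and Ccna2 at -0.18 ± 0.08, both dim as well, with means of 5.12 and 4.09. MHC class II genes, which dendritic cells and B cells also carry, were higher at day 14 than in naive ganglia in 8 of 8 with a median of 0.73, and 6 reached the unadjusted p.

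Markers of other leukocytes and of blood were set beside these values. The neutrophil list was lower at day 14 than in naive ganglia in 7 of 9 genes with a median of -0.70, and its mean over genes ran from 5.65 to 6.62 at day 14 and from 5.69 to 6.58 at day 7, against 5.48 to 7.90 in naive ganglia. Between day 14 and day 7 the same list was higher in 7 of 9 genes with a median of 0.04. The red blood cell list was lower than in naive ganglia in 5 of 5 genes with a median of -0.57, with means from 7.95 to 10.04 at day 14 and from 7.82 to 9.70 at day 7, against 8.01 to 10.90 in naive ganglia. Naive replicate 3 was the highest of all 19 arrays in both lists, and it was also the naive rat with the most high myeloid genes, among them Itgam, Fcer1g and Fcgr2b. With the red blood cell mean as a covariate, the median of the 33 myeloid genes was 0.22 for day 14 minus naive, and 11 genes (33.3%) reached the unadjusted p upward, where 9.99% of all probe sets did in that fit.

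The lymphocyte list was higher at day 14 than in naive ganglia in 10 of 16 genes with a median of 0.11, the mast cell list in 7 of 10 with 0.08 and the dendritic cell list in 5 of 6 with 0.09, where 56.4% of all probe sets were higher. Their means over genes lay within 5.53 to 5.79 at day 14 and 5.46 to 5.78 at day 7, against 5.51 to 5.69 in naive ganglia for lymphocytes. For mast cells they lay within 5.45 to 5.64 at day 14 and 5.32 to 5.77 at day 7, against 5.40 to 5.67 in naive ganglia, and for dendritic cells within 6.51 to 6.67 and 6.43 to 6.73, against 6.41 to 6.53. All of these ranges overlapped. Their part in the myeloid levels was not tested.

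Neurons, glia and other tissue cells were read in the same way. Sensory neuron markers, which define the labelled tissue, were bright on every array in a table whose values ran from 3.48 to 14.02. Their mean over 14 genes was 11.90 ± 0.09 at day 14 and 11.89 ± 0.09 at day 7, against 11.86 ± 0.04 in naive ganglia (SD). The satellite glia and Schwann cell list was 0.15 higher at day 14 than at day 7 (two-sided exact permutation p = 0.009) and -0.13 at day 7 relative to naive (exact p = 0.025). Neither held after adjustment over the 24 tests of array measures (adjusted p = 0.21 and 0.303). In that list 6 of 8 genes were lower at day 7 than in naive ganglia with a median of -0.11. Of these, 3 reached the unadjusted p, where 5% of all probe sets were lower, led by the myelin gene Mag at -0.51 ± 0.15 (adjusted p = 0.416). At day 14, 4 of 8 were higher with a median of 0.00, among them Fabp7 at 0.50 ± 0.20, and Mag stood at -0.35 ± 0.15 (adjusted p = 0.191 and 0.202). Fibroblast and matrix genes were higher at day 14 than at day 7 in 8 of 8 with a median of 0.22. At the unadjusted p 5 were, led by Col1a1 at 0.63 ± 0.12 (adjusted p = 0.155), where 7.11% of all probe sets were higher. The endothelial list was higher in 3 of 7 genes at day 14 against naive with a median of -0.02. A signal of RNA quality, the 3′ minus 5′ difference of the Actb and Gapdh control probe sets, was 3.26 ± 0.07 at day 14 and 3.27 ± 0.08 at day 7, against 3.42 ± 0.18 in naive ganglia (exact p = 0.083 for day 14 and 0.111 for day 7). With it as a covariate, the genes at an unadjusted p under 0.05 numbered 5 (15.2%) for day 14 against naive and 10 (30.3%) for day 14 against day 7, where 5.4% and 7.05% of all probe sets were higher at that p.
The skeletal muscle list was lower in 15 of 16 genes at day 14 than in naive ganglia with a median of -0.48. Without those 3 arrays, 7 myeloid genes (21.2%) reached the unadjusted p upward for day 14 against naive with a median of 0.137, where 12.3% of all probe sets did. For day 14 against day 7, 8 (24.2%) did with a median of 0.179, where 6.17% of all probe sets did.

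**Figure D4:**
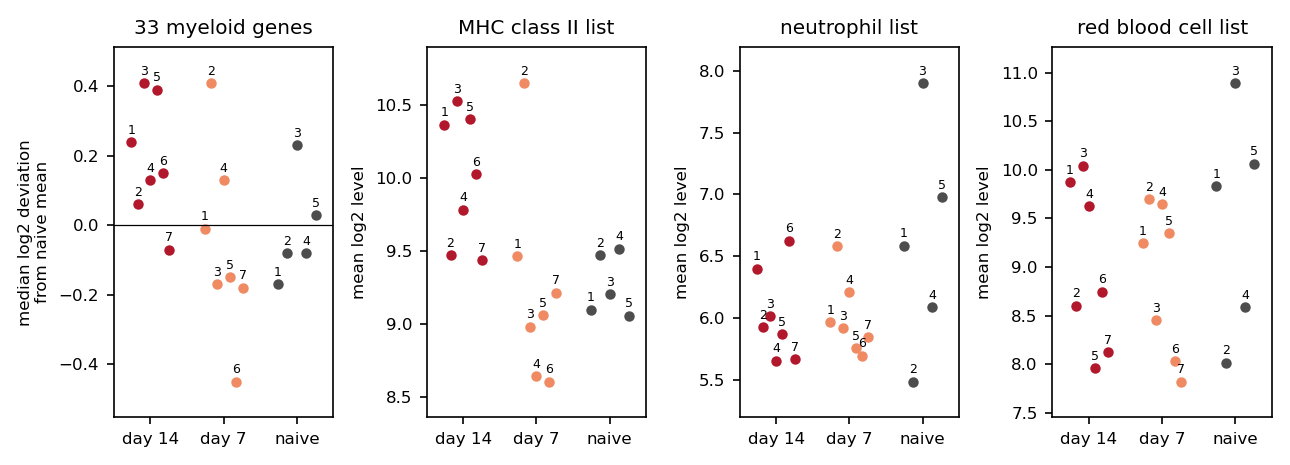
Each point is 1 array, labelled by its replicate, with day 14, day 7 and naive groups from left to right. The first panel shows the median log2 deviation of the 33 myeloid genes from the naive mean, and the others the mean log2 level of the MHC class II, neutrophil and red blood cell lists, where naive replicate 3 is the highest array of both blood lists at 7.90 and 10.90.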

How the data were processed

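RNA of single T11 ganglia of 19 rats was measured on 19 arrays, 1 per rat (7 at day 14, 7 at day 7, 5 naive). The deposited table holds log2 values by probe set. RMA and limma are named in the submitters' processing notes, without versions. Another naive rat of the labels' protocol is not analysed here. The arrays were used as deposited, without further scaling. Probe sets were named by the platform annotation, in which 20826 had 1 gene symbol. The 57 control probe sets were left out, and 31042 were tested.

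Differences came from limma 3.58.1 in R 4.3.3 (lmFit and eBayes, all 3 groups in 1 fit without covariates, 16 residual and 4.2 prior degrees of freedom), with Benjamini-Hochberg adjustment over all tested probe sets and a threshold of 0.05. The number of arrays limits the precision, and values are ± SE for differences and ± SD for levels. Medians, counts and array profiles came from Python 3.11.15 with numpy 2.4.6 and pandas 2.3.3, exact permutation tests from scipy 1.17.1 and figures from matplotlib 3.10.9. The limma step was tested on simulated data.

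Every one of the 35 genes was to be named, and from each other list at most the 3 genes with the smallest p. The genes and lists were chosen with earlier results of these data known. Alternatives were the rat code prefix or the replicate number as a block, covariates for RNA quality, muscle and blood, array weights, trended and robust moderation, median centring, a filter on low levels, other choices of probe set, fits of 2 groups and leaving out each array. Same-numbered arrays of different groups did not deviate together (3 of 17 pairs with a correlation over 0.1), so the numbers were not taken as pairs.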

Additional observations from a re-analysis of the deposited data

Results flagged for a closer look

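Of 99 sets of levels (33 myeloid genes in 3 groups), 8 held 1 array whose gap to its nearest neighbour was large for the range of its group by Dixon's criterion at the 95% level, where chance gives about 1 in 20, or 4.95. Most came from a few rats. Day 7 replicate 2 stood apart in Fcgr2b at 8.70 (next 6.22), in Irf8 at 7.08 (next 6.0) and in Gpnmb at 7.54 (next 6.74). Naive replicate 3 stood apart in Fcer1g at 10.60 (next 10.04), in Fcgr2b at 6.47 (next 5.87) and in Itgam at 5.88 (next 5.61). Day 7 replicate 4 stood apart in Cd163, the haemoglobin scavenger receptor, at 7.71 (next 6.39), and day 14 replicate 3 in Aif1 at 7.40 (next 7.17).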

How the results depend on the processing

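The number of arrays and the wide spread of the myeloid genes limit these results. There were 33 alternative settings, 19 of which leave out 1 array. The count of genes past the adjusted threshold stayed at 0 except for day 14 against naive. There it was 2 at an adjusted p under 0.1, where 729 of 31042 probe sets were called. With 1 array left out it was 0 to 2, where 5 to 401 probe sets were called. The 2 were Fcgr3a and Tlr2 without naive replicate 1, which was the highest naive array of both genes. Counts at an unadjusted p under 0.05 moved as well. So did the share of all probe sets that were higher at that p, which is given in brackets. For day 14 against naive the count of 8 became 3 with the animal code prefix as a block (3.14%) and 5 with the RNA quality covariate (5.4%). It was 4 of 22 genes above the median level (5.81%) and 6 to 9 with 1 array left out (7.74% to 12.5%). For day 14 against day 7 the count of 10 became 4 with the prefix block (2.55%). It was 6 of 22 genes above the median level (27.3% of them, against 3.73%). With 1 array left out it was 5 to 15 (5.15% to 8.37%). It was 5 without day 14 replicate 5, day 7 replicate 5 or day 7 replicate 6, 6 without day 14 replicate 3 and 15 without day 7 replicate 2. For day 7 against naive the count of 1 became 0 with the RNA quality covariate (1.96%), with array weights (4.01%) or without the 3 muscle-high arrays (5.22%). It was 2 with trended and robust moderation (3.67%) or with only the 2 groups in the fit (3.28%). With 1 array left out it was 0 to 2 (2.59% to 4.75%). The cause was not tested.

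The replicate block, in which arrays of the same replicate number share a term, changed no call at the adjusted threshold. At an unadjusted p under 0.05 it gave 13 higher genes (39.4%) for day 14 against naive, where 7.94% of all probe sets were higher. It gave 1 (3.0%) for day 7 against naive, where 2.93% were, and 11 (33.3%) for day 14 against day 7, where 7.04% were. The correlations of same-numbered arrays ran from -0.26 to 0.33. The median difference over the genes ran from 0.115 to 0.237 for day 14 minus naive, from -0.111 to 0.042 for day 7 minus naive and from 0.147 to 0.275 for day 14 minus day 7. Over all probe sets the calls for day 14 against naive, 43 as designed, ran from 5 to 401 with 1 array left out and were 0 with the prefix block or the RNA quality covariate and 729 at an adjusted p under 0.1. Of 3135 values of single genes under alternatives, 3128 stayed uncalled within 1 SD of the reported value, 5 stayed uncalled but moved by more than 1 SD, 2 passed the threshold (Fcgr3a and Tlr2, above) and 0 reversed a call. The sign changed in 109 of them, none of them a called difference. The 5 were Coro1a at -0.06 and -0.07 and Lcp1 at 0.36 with the prefix block, and P2ry12 at 0.05 and Aif1 at 0.18 with the mean of their probe sets.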
